A study of Mus musculus with 3 samples.

Results

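The nuclear-coded genes of oxidative phosphorylation were taken by name from count tables of single cells of the mouse blastocyst. Every symbol beginning with Nduf, Uqcr or Atp5 was used, every symbol from Cox4 to Cox8, and Sdha, Sdhb, Sdhc, Sdhd, Cycs and Cyc1. This gave 94 of 23154 genes, of which 88 had at least 1 count in a retained cell. The libraries were made from embryos at embryonic day 3.5 and are called replicates 1, 2 and 3. They carry 96 cell barcodes each and form 1 group. All embryos came from the Klf2-H2B-mCherry reporter line and were mCherry-positive. They were collected at embryonic day 2.5 and grown in KSOMaa medium under static and shaking conditions. The labels do not say which cell came from which condition, and they give neither the number of embryos nor the sex, so no comparison between culture conditions was made. Whether each library had its own culture or animals is not stated, so a p-value here reflects the spread among 3 libraries, which may be technical.

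Oxidative phosphorylation is the main route by which mitochondria make ATP. Complexes I and II take electrons from NADH and succinate, complex III passes them to cytochrome c, and complex IV hands them to oxygen. Complexes I, III and IV pump protons across the inner membrane, and complex V, the ATP synthase, makes ATP as the protons return. In the blastocyst, the outer trophectoderm (TE) uses much ATP to run the sodium pump that fills the cavity with fluid, and it is known for more oxygen use than the inner cell mass (ICM).

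Barcodes with a count for 2000 or more genes were retained as cells, 83, 64 and 78 of them in replicates 1, 2 and 3. All 96 barcode numbers were shared by the libraries, so a number does not identify a cell across them. Retained cells held 30526460, 27518501 and 54264436 counts in replicates 1, 2 and 3. Replicate 2 stood apart. Cytoplasmic ribosomal protein genes took 4.72% of its counts, against 14.7% and 14.5% in replicates 1 and 3. Clustering on 54 lineage markers gave 34, 39 and 43 TE-like cells and 32, 24 and 33 ICM-like cells in replicates 1, 2 and 3. A further 17, 1 and 2 cells fitted neither class and stayed unnamed. Summed TE markers such as Cdx2, Gata3 and Krt8 stood at 5527 to 8992 CPM in TE-like cells. In ICM-like cells the same markers stood at 556 to 867 CPM, where CPM is the count of a gene scaled in the usual way to the total count of the cells summed. ICM markers summed to 94.3 to 338 CPM in TE-like and 778 to 1336 CPM in ICM-like cells. Epiblast markers summed to 415 to 508 and 656 to 1085 CPM. Primitive endoderm markers were higher in TE-like cells, at 840, 3990 and 2130 CPM against 660, 1958 and 858 CPM. These lists drew the classes, so their sums are no separate check of the names. Markers of cumulus cells, blood and fibroblasts summed to less than 1 CPM in each class and library, with 3 of 5, 4 of 5 and 3 of 5 of them at 0. The 3 oviduct markers summed to 2.25 to 11.98 CPM and the 6 oocyte markers to 9.46 to 57.7 CPM, and none of these was at 0 throughout.

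Members took 2.70% of the counts of replicate 1, 1.44% of replicate 2 and 2.88% of replicate 3 (mean 2.34% ± 0.785, SD, n = 3). Replicates 1 and 3 lay close together and replicate 2 was lower. Without the unnamed cells, the share of replicate 1 was 3.66% and the others remained at 1.44% and 2.88%. Of the 94 members, 83 had a mean of at least 10 CPM over the libraries and 69 of at least 100 CPM. Another 5 lay above 0 and under 1 CPM, and 6 had no count in any barcode.

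**Figure D1:**
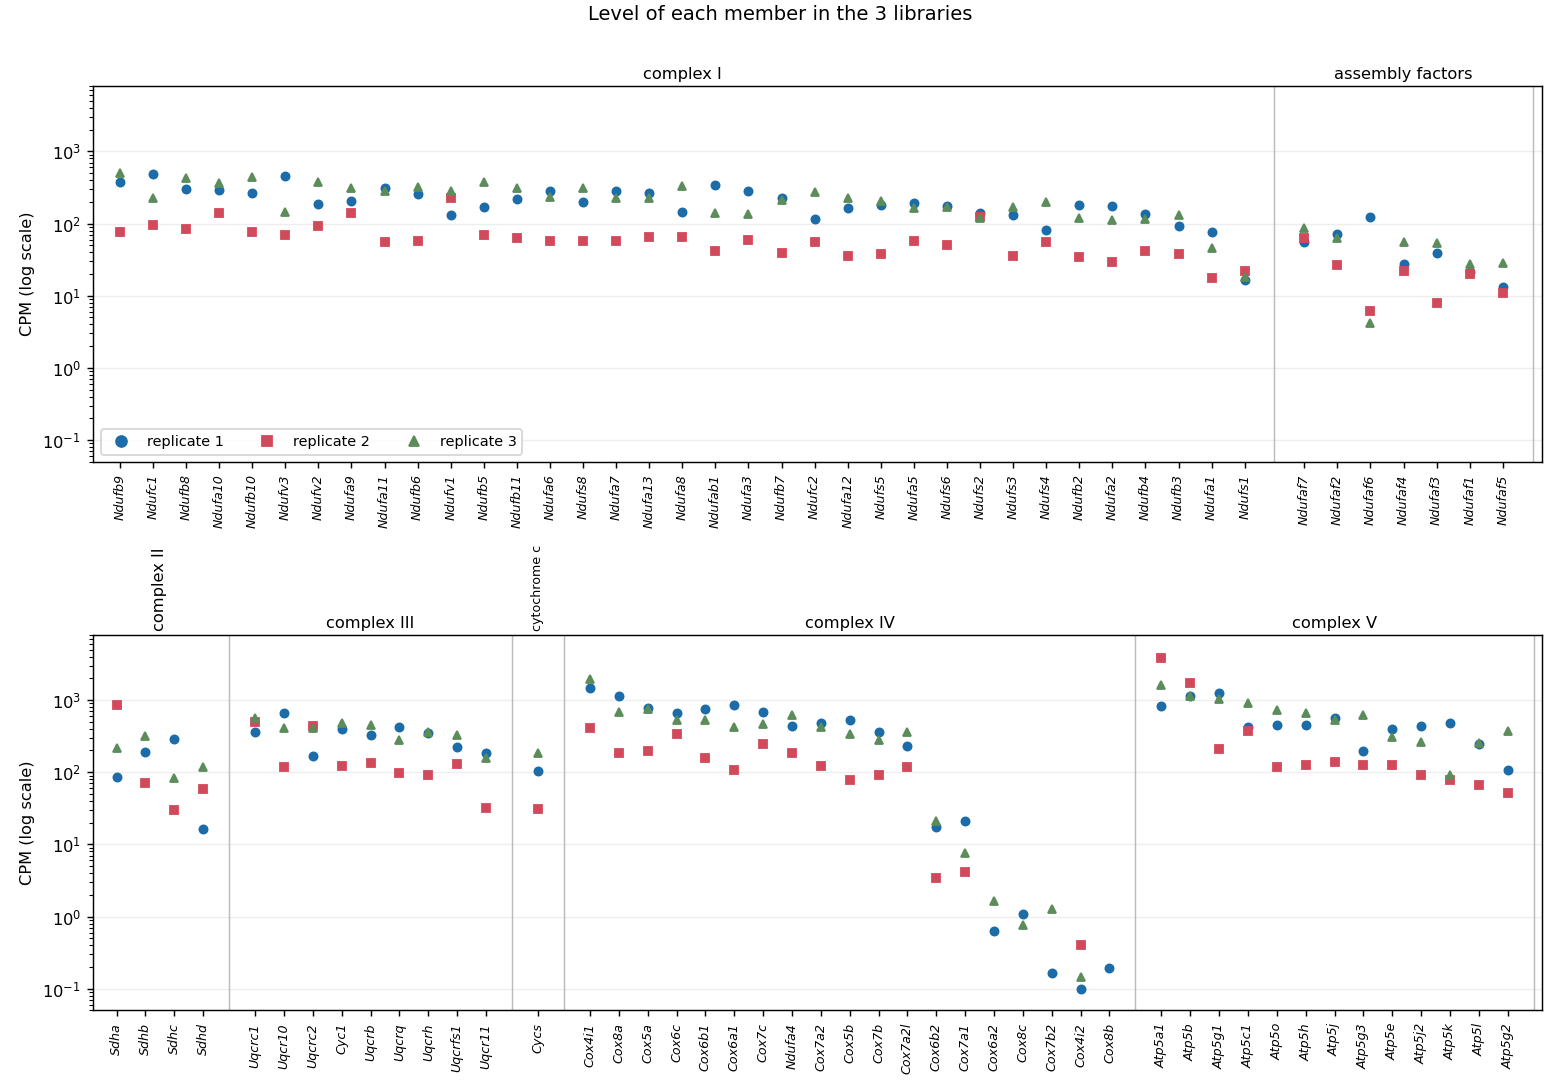
Level of the 88 members with a count in each of the 3 libraries, in CPM on a log axis, grouped by complex and ordered by mean CPM. Red squares (replicate 2) lie below the other 2 libraries for most members, and above them for a few, Atp5a1, Atp5b and Sdha among them.

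In complex I, the NADH dehydrogenase, 35 of 36 members had a count. Its members summed to 7538, 2319 and 8232 CPM in replicates 1, 2 and 3. By mean CPM the leading members were 3 accessory subunits. Ndufb9 was at 374, 76.5 and 498 CPM. Ndufc1 was at 484, 96.04 and 229 CPM. Ndufb8 was at 297, 84.6 and 424 CPM. All 3 were lowest in replicate 2. Divided by transcript length, Ndufc1 stood at 1536, 305 and 728 CPM per kilobase and Ndufb9 at 531, 109 and 707. Ndufc1 was then above Ndufb9 in all 3 libraries, by little in replicate 3. In CPM, Ndufb9 was the higher in replicate 3. The lowest subunit with a count was Ndufs1, the largest iron-sulfur core subunit, at 16.6, 22.0 and 18.2 CPM. Ndufs7, another core subunit, was listed at 0 in every barcode. The 7 assembly factors, which help to build complex I and are not part of it, summed to 354, 156 and 319 CPM. Ndufaf7, a methyltransferase for complex I, led them at 56.0, 62.9 and 86.4 CPM.

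Complex II, succinate dehydrogenase, is both a Krebs cycle enzyme and an entry point of electrons, and its 4 subunits differed in pattern between the libraries. Sdha, the flavoprotein, was at 85.3, 857 and 213 CPM in replicates 1, 2 and 3. Sdhb, the iron-sulfur subunit, was at 188, 70.8 and 320 CPM. Replicate 2 was the highest library for the first and the lowest for the second. Sdhc, a membrane anchor, was at 292, 29.6 and 83.1 CPM. Sdhd, the other anchor, was at 16.4, 58.3 and 117 CPM. Most of the Sdhc counts of replicate 1 came from its unnamed cells and 1 ICM-like cell, and in TE-like cells Sdhc was at 84.2, 28.7 and 84.5 CPM. As a level per kilobase, Sdhb was at 165, 62.0 and 280 CPM and Sdhc at 92.1, 9.33 and 26.2 CPM. Sdhb was thus above Sdhc in all 3 libraries, whereas in CPM Sdhc was the higher in replicate 1. Counts of captured 3' ends need not scale with length.

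In complex III, all 9 members had a count, with sums of 3095, 1667 and 3444 CPM. Uqcrc1, a core protein, was at 360, 499 and 570 CPM, and its partner Uqcrc2 was at 165, 442 and 405 CPM. Neither core protein was lowest in replicate 2. The small subunit Uqcr10 was at 654, 119 and 411 CPM, and Cyc1, the cytochrome c1 that hands electrons to cytochrome c, was at 394, 122 and 482 CPM. Both were lowest in replicate 2. Exons of Uqcrc2 overlap those of Pdzd9 over 19.7% of their length, and no source used here gives the strand setting of the counting. Cycs, the somatic cytochrome c itself, was at 103, 30.9 and 184 CPM.

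Complex IV, cytochrome c oxidase, reduces oxygen to water. Its 19 members with a count summed to 8375, 2233 and 7368 CPM. Cox4i1, which carries the regulatory site for ATP, was at 1450, 409 and 1940 CPM. Cox8a, a small membrane subunit, was at 1137, 182 and 673 CPM, and Cox5a, which binds thyroid hormone metabolites, was at 764, 194 and 758 CPM. All 3 were lowest in replicate 2 by a clear margin. In CPM, the highest mean of all members was that of Atp5a1 of complex V, at 2076 ± 1529 (SD, n = 3). Per kilobase, Cox4i1 had the highest mean of all members at 1700 ± 1049 CPM (SD, n = 3). It was followed there by Atp5g1 of complex V at 1390 ± 917 and Cox8a at 1208 ± 868. Cox4i1 was above Atp5g1 in replicates 2 and 3 and below it in replicate 1, and Atp5g1 was above Cox8a in all 3, though by little in replicates 1 and 2.

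Complex V was the group whose sum differed least between the libraries, relative to its size. It summed to 6994, 6985 and 8502 CPM for 13 members with a count. It took 25.9%, 48.5% and 29.5% of all member counts in replicates 1, 2 and 3, so its weight was greatest in replicate 2. Atp5a1, the alpha subunit of the catalytic head, was at 838, 3785 and 1605 CPM. Atp5b, the catalytic beta subunit, was at 1146, 1700 and 1122 CPM. Both were highest in replicate 2, and they held most of the complex V counts there. The median over the members of complex V was 457, 126 and 630 CPM, lowest in replicate 2. Atp5g1, which codes for the proton-carrying c subunit of the ring, was at 1235, 207 and 1043 CPM and was lowest there. Atp5d and Atp5f1, the delta and b subunits, were listed at 0 in every barcode, as were Atp5s, Atp5sl and Ndufa4l2. Exons of other genes overlap 3.5% of Atp5d, 8.2% of Atp5f1 and 0.0% of Ndufs7, and the cause of the zeros was not tested. Many members have processed pseudogenes elsewhere in the genome, and no source used here says how reads that match several places were counted.

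Several subunits exist as paralogs, one of them usually described from heart and muscle, testis or low oxygen. The form found in most tissues was the higher one in each of these cells' libraries. Cox6a1 was at 861, 107 and 421 CPM, and its heart and muscle form Cox6a2 was at 0.622, 0 and 1.64 CPM, with counts in 3, 0 and 3 cells. Cox4i1 was seen in every retained cell, whereas Cox4i2, the form known from lung and low oxygen, had 3, 11 and 8 counts in replicates 1, 2 and 3. Cox8a stood against 6, 0 and 0 counts of Cox8b, the heart and muscle form, and 33, 0 and 42 counts of Cox8c, the testis form. The ratio of Cox8a to Cox8b was at least 1673-fold in replicate 2 and at least 12182-fold in replicate 3, taking 3 counts per library as the floor. Cox7b stood at 357, 92.4 and 281 CPM against 5, 0 and 68 counts of Cox7b2, which were spread over 2, 0 and 4 cells. Ndufa4, now counted as a complex IV subunit, was at 438, 185 and 625 CPM. Its paralog Ndufa4l2, a gene known to be induced by low oxygen, had no count in any barcode. On the same floor the ratio would be at least 4454-fold, 1696-fold and 11302-fold. These bounds hold only if Ndufa4l2 was counted at all. It is among the members listed at 0 throughout, and the cause of those zeros was not tested.

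In 2 sets the minor form was low but present in many cells. Cox6b1 was at 752, 157 and 529 CPM. Cox6b2, the testis form, was at 17.5, 3.45 and 20.8 CPM and had a count in 38, 29 and 41 cells. The log2 ratio of Cox6b1 to Cox6b2 was 5.20 ± 0.465 (SD, n = 3), or 4.66 per kilobase. Cox7a2 was at 480, 122 and 424 CPM, and Cox7a1, the heart and muscle form, was at 21.2, 4.14 and 7.5003 CPM with a count in 56, 36 and 49 cells. Their log2 ratio was 5.07 ± 0.680, or 4.32 per kilobase. In both sets the same form was the higher in the summed counts of every library, and the log2 ratio exceeded its SD many times over. Free RNA was not measured in empty wells, so how much of a low count reflects transcripts made in the cell was not tested.

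Other sets held forms of more similar level. Cox7a2l, which joins complexes III and IV into supercomplexes, was at 228, 119 and 359 CPM. The log2 ratio of Cox7a2 to Cox7a2l was 0.45 ± 0.553 (SD, n = 3) and 1.15 per kilobase, and in replicate 2 the CPM of the 2 genes were nearly equal, with a log2 ratio of 0.03. The order of Cox7a2 and Cox7a2l in CPM therefore did not hold beyond the spread of the libraries. Atp5g1, Atp5g2 and Atp5g3 code for the same mature c subunit behind different import signals. Atp5g3 was at 194, 126 and 630 CPM, and Atp5g2 at 108, 51.2 and 367 CPM. Atp5g1 was the highest of the 3 in every library and Atp5g2 the lowest. The ratio of Atp5g1 to Atp5g2 was 11.4-fold, 4.04-fold and 2.84-fold in replicates 1, 2 and 3, and that of Atp5g1 to Atp5g3 was 6.35-fold, 1.64-fold and 1.66-fold. Replicate 1 set the means of both log2 ratios, 2.35 ± 1.04 and 1.37 ± 1.12. Without replicate 1 the means were 1.76 and 0.72.

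**Figure D2:**
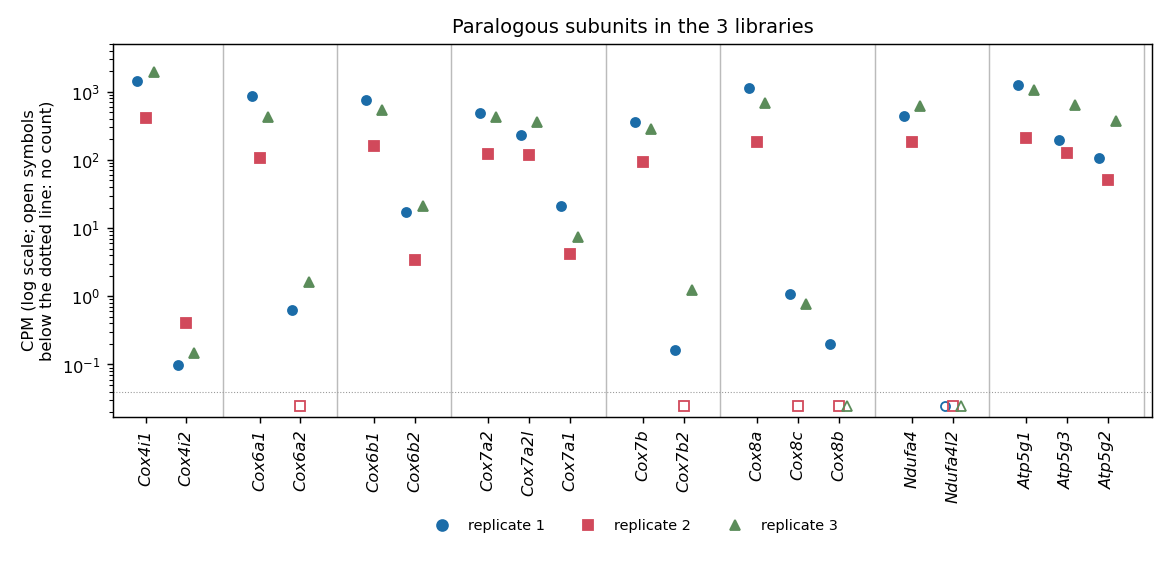
CPM of 19 paralogous subunits in the 3 libraries on a log axis, with open symbols under the dotted line for a library without a count. Within each set the first gene lies above the others in every library. The gap exceeds 100-fold for Cox4i1, Cox6a1, Cox7b and Cox8a, and is least for Cox7a2 over Cox7a2l. Ndufa4l2 had no count in any barcode, and the cause of that was not tested.

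Promoters of the members were read from RefSeq windows that run from 250 bases before to 50 bases after a transcript start (assembly GRCm38.p6), which were found for 74 of the 94 members. Motifs were searched on both strands as exact letters. The letters GCGC, any base and TGCGC in a row, bound by NRF1, a known regulator of respiratory genes, were present in 25.3% of the 79 member windows and in 4.603% of 32851 windows of all genes. The core CCGGAAG of ETS factors such as GABPA was present in 21.5% against 8.86%, and AAGATGGCG, bound by YY1, in 8.86% against 1.40%. The median number of CpG was 19 in member windows and 7 in all windows, and letters rich in CpG are found more often where CpG is common. A match is a stretch of letters and was not measured as binding. The windows printed here are those of a pair of paralogs far apart in level, Cox8a and Cox8b, of a member low in replicate 2, Cox6a1, and of the member with the largest rise there, Sdha. Capitals mark matches to any of the 3 motifs. They lie on the minus strand at chr19:7217567-7217866 for Cox8a, chr7:140900397-140900696 for Cox8b, chr5:115348909-115349208 for Cox6a1 and chr13:74350191-74350490 for Sdha.
Cox8a: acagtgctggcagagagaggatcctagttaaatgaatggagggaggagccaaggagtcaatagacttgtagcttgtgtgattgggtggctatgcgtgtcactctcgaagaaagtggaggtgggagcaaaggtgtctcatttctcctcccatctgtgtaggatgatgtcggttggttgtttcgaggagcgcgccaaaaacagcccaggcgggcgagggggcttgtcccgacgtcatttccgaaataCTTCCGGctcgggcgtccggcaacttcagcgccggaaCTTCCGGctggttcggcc
Cox8b: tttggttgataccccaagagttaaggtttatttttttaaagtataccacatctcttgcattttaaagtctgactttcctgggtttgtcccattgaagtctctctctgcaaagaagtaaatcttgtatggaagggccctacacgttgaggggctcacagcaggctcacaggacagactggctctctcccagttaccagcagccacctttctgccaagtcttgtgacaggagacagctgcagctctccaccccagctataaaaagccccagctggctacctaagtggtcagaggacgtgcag
Cox6a1: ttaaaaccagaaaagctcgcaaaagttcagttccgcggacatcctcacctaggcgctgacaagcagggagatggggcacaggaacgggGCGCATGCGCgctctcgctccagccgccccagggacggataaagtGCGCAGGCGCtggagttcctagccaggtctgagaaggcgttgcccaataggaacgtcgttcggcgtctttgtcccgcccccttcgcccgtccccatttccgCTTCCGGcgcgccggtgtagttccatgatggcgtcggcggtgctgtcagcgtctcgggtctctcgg
Sdha: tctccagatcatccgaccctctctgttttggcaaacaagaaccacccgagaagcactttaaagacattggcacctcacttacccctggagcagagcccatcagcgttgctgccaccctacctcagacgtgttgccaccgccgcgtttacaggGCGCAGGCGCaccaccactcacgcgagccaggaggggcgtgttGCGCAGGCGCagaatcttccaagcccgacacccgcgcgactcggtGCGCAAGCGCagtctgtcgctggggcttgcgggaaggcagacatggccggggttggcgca
The Cox8a window held 19 CpG and 2 ETS matches, and the Cox8b window held 2 CpG and no match. The lower form also had fewer CpG in the pairs Cox7a2 and Cox7a1, with 20 and 7, and Cox6b1 and Cox6b2, with 17 and 10. The pair Cox7b and Cox7b2 went the other way, with 5 and 10, as did the Atp5g set, with 16 for Atp5g1, 20 for Atp5g2 and 21 for Atp5g3. The Cox6a1 window held 2 NRF1 matches and 1 ETS match, and the Sdha window held 3 NRF1 matches, so that members at both ends of the range in replicate 2 carried NRF1 letters.

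The level of members in replicate 2 was compared with the mean of replicates 1 and 3. Over the 83 members with a mean of at least 10 CPM, the median log2 ratio was -1.89, against 0.04 over 8642 genes with the same minimum. Of these members, 59 were at least 2-fold below both other libraries, 71.1% of them, against 12.6% of all genes, and 2, Atp5a1 and Sdha, were at least 2-fold above both, against 18.3% of all genes. The other 22 were neither. With 1 library on one side there was no test. TMM scaling moved the median of all genes from 0.04 to -0.08 and that of the members to -2.03.

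Members are mostly short transcripts, and the ratio went with length in all genes. Of the 88 members with a count, 58 had a transcript under 1000 bases. For those 53 that also reached 10 CPM, the median log2 ratio was -2.02 and the range -2.59 to -0.81, and for 908 genes of the same length class it was -1.85. For 23 members of 1000 to 2000 bases it was -1.09, against -0.46 for 2153 genes. For 7 members over 2000 bases it was -0.92, against 0.52 for 5557 genes. Within each class the median of the members was below that of all genes, by least among the shortest transcripts. Cytoplasmic ribosomal proteins, which are also short, had a median of -1.81 over 80 genes and mitochondrial ribosomal proteins of -1.80 over 77 genes. The 17 Krebs cycle genes had a median of 0.84.

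Among the 74 members with a mean of at least 50 CPM, the lowest log2 ratios over all cells were Sdhc at -2.66, Cox6a1 at -2.59 and Ndufab1 at -2.55. Ndufab1, the mitochondrial acyl carrier protein of complex I, was at 342, 41.0 and 138 CPM in replicates 1, 2 and 3. At the other end stood Uqcrc2 at 0.63, Atp5a1 at 1.63 and Sdha at 2.52, each with a transcript of 1896 bases or more. Transcripts at the low end were of mixed length, with 3171 bases for Sdhc, 571 for Cox6a1 and 1416 for Ndufab1. Cycs, with 3123 bases, was also low at -2.21. The places of Sdhc and Ndufab1 rest on a few cells of replicate 1. Of its 8911 counts of Sdhc, 4529 were in the 17 unnamed cells and 2803 in 1 ICM-like cell. Among named cells the lowest ratios were Cox6a1 at -2.94, Cox5b, a subunit of complex IV, at -2.82 and Atp5g1 at -2.76. There Ndufab1 was at -2.17, and Sdhc at -2.30, or at -1.46 when that cell was also left out.

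**Figure D3:**
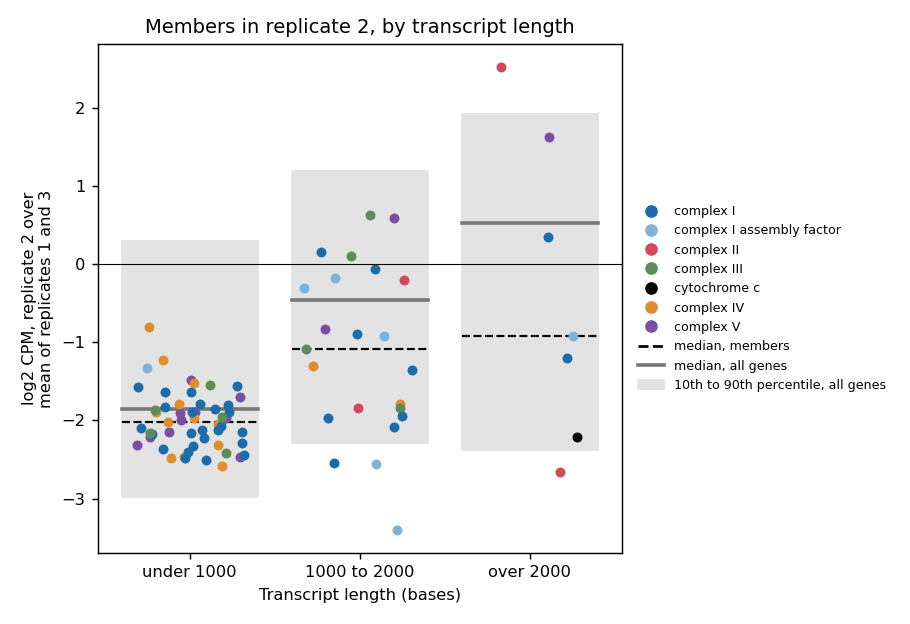
Log2 ratio of CPM in replicate 2 to the mean of replicates 1 and 3 for 83 members, in 3 classes of transcript length, with colours for the complexes. Dashed lines are medians of the members (-2.02, -1.09 and -0.92), grey lines medians of all genes (-1.85, -0.46 and 0.52), and grey boxes span the 10th to the 90th percentile of all genes.

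Single cells were compared by the percent of their counts that fell on members. TE-like cells of replicate 1 ran from 1.07% over a median of 3.65% to 4.93%, and its ICM-like cells from 0.730% over 3.55% to 4.27%. In replicate 2 the medians were 1.28% (TE-like) and 1.38% (ICM-like), with ranges of 0.472% to 2.48% and 0.861% to 2.22%. In replicate 3 they were 3.01% and 2.67%, with ranges of 0.428% to 3.75% and 1.06% to 3.89%. The classes overlapped over most of their range in every library. The median cell had a count for 80, 79 and 80.5 members in replicates 1, 2 and 3.

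The TE-like class was made of 2 clusters, numbered 0 and 2, and the ICM-like class was cluster 1. Median shares in clusters 0, 1 and 2 were 4.28%, 3.55% and 3.33% in replicate 1. They were 1.77%, 1.38% and 1.15% in replicate 2, and 3.18%, 2.67% and 2.51% in replicate 3. The order was the same in each library, with 1 TE-like cluster above and 1 below the ICM-like cells. Median totals per cell had that order too, at 299072, 283396 and 274916 counts in replicate 1, 668381, 336184 and 148774 in replicate 2, and 1005340, 614075 and 390474 in replicate 3, and the part of depth in the shares was not tested. The leading genes of cluster 0 were Dppa1, Id2 and Tspan8. Those of cluster 2 included the TE markers Gata3 and Krt18 and the primitive endoderm markers Lrp2 and Dab2. Over all TE markers, cluster 2 exceeded the other cells by a mean log2 of 0.581 and cluster 0 by 2.483. Over all primitive endoderm markers the differences were -0.071 for cluster 2 and 0.072 for cluster 0. Of 205 named cells, 12 had a share below 0.5 of the median of their library, a limit set after the values were seen. Of the 12, 10 belonged to cluster 2, which held 70 of the 205 cells. The low cells had totals of 65123 to 129593 counts in replicate 2 and 12897 to 157918 in replicate 3. In replicate 1 they had 48926 and 1165262 counts.

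Members varied less from cell to cell than other genes of the same minimum level, which were not matched further for level. For 69 members with a mean of at least 100 CPM, the median coefficient of variation of CPM over the named cells was 0.450, 0.758 and 0.552 in replicates 1, 2 and 3. For all 2370 genes with that minimum it was 0.762, 0.969 and 0.874. Cox4i1 was the least variable member in each library, at 0.274, 0.417 and 0.336. The most variable were Sdhc in replicate 1 at 2.71, Ndufs4, an accessory subunit of complex I, in replicate 2 at 1.64, and Uqcrfs1, the Rieske protein of complex III, in replicate 3 at 1.24. Between the share of members and the total counts of a cell, Spearman's rho was 0.40, 0.12 and 0.55 over 66, 63 and 76 cells. These cells share a library, and the values are a description.

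The 17 unnamed cells of replicate 1 had barcodes between 36 and 64. Their shares ran from 0.271% over a median of 0.572% to 0.863%, below all named cells of that library apart from 1 ICM-like cell at 0.730%. Summed over the cells, members took 0.582% of the counts, against 3.66% in the 66 named cells. Of 82 members with at least 10 CPM in the named cells, 74 were at least 4-fold lower, 90.2% of them, against 43.4% of 7748 genes. The median log2 ratio was -3.39 over the members and -1.47 over all genes. Only 4 of the 82 members were higher in the unnamed cells. They were Ndufaf6 at 336 against 28.2 CPM, Ndufab1 at 586 against 232 CPM, Sdhc at 478 against 208 CPM and Ndufv3 at 629 against 374 CPM. The share of ribosomal protein genes was 2.31% in the unnamed and 20.3% in the named cells, and the median total was 295639 counts, close to that of the named classes. TE markers summed to 927 against 3572 CPM and ICM and EPI markers to 1704 against 1437 CPM. By class in replicate 1, TE markers summed to 6116 CPM in TE-like and 867 CPM in ICM-like cells. ICM markers were at 338 and 1336 CPM there, and EPI markers at 508 and 729 CPM. On summed TE markers the unnamed cells thus lay near the ICM-like cells. In mean log2 level, the unnamed cluster of 20 cells differed from other cells by -1.307 for TE markers and -0.753 for ICM and EPI markers. All of this rests on 1 library, so it has no replicate check, and the part of RNA quality or capture in it was not tested.

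**Figure D4:**
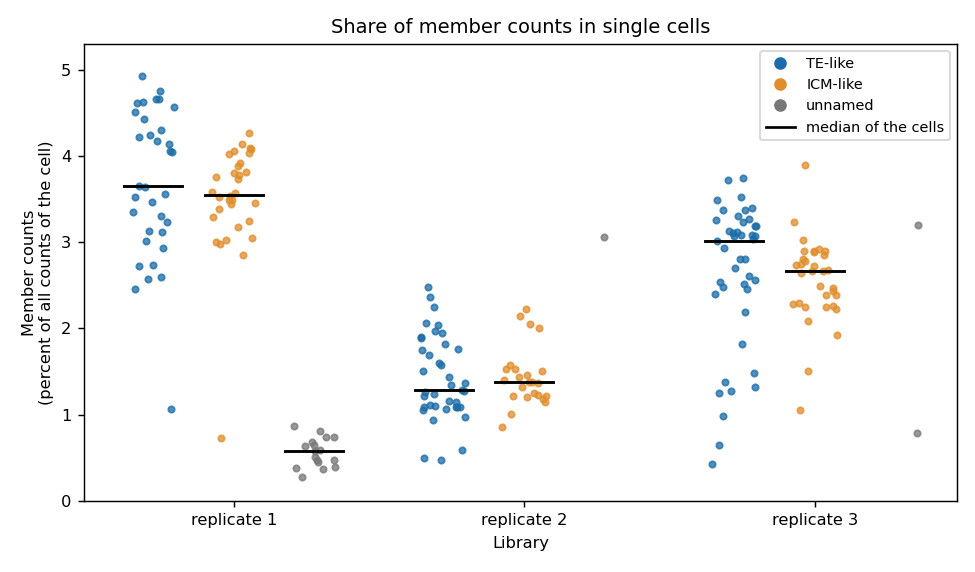
Percent of each cell's counts that fell on members, for the 225 retained cells by library and class, with a line at the median of groups of more than 2 cells. The unnamed cells of replicate 1 (0.271% to 0.863%) lie under its named cells except 1, and cells of replicate 2 lie under most cells of the other libraries.

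Whether TE-like and ICM-like cells differed in the members was tested on counts summed per library and class, with the library as a block. No member passed an adjusted p of 0.05 in edgeR's quasi-likelihood test, among 85 members tested, whereas 2.01% of 13514 genes passed, 1.52% higher and 0.481% lower in TE-like cells. In data simulated for this comparison, changes were placed on genes drawn at random from all that passed the filter. The same test recovered 2.06% of 2-fold and 38.3% of 4-fold changes among 13532 genes. Most 2-fold changes in genes so drawn would thus be missed. The members lay at higher levels, with 77 of 85 at a log2 CPM of 5 or more, against 5059 of 13514 genes. Recovery at their levels was not simulated. At an unadjusted p below 0.05, 13 of 85 members were higher in TE-like cells and 0 lower, against 8.02% and 6.68% of all genes. Among those at a log2 CPM of 5 or more, 13 of 77 members were higher and 0 lower, against 569 and 478 of 5059 genes. At that level edgeR called 210 of the 5059 genes. DESeq2, used as another tool, called 2 of the 86 members to which it gave an adjusted p, Cox5a and Ndufa8, against 9.08% of 13485 genes.

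Log2 fold changes were positive, meaning higher in TE-like cells, for 70 of 85 members and negative for 15. Their median was 0.21, against 0.00 over all genes tested. In all 3 libraries 42 members were higher in TE-like cells and 5 lower, where 20.3% and 18.9% of all genes were. At a log2 CPM of 5 or more, 42 of 77 members were higher and 2 lower, against 1174 and 1042 of 5059 genes. On plain CPM with 1 added and without TMM, the median within each library was 0.30, 0.02 and 0.17. On this measure replicate 2 showed almost no shift, and the median of all genes was not taken per library. The ICM-like sum of replicate 1 includes 1 cell of 1165262 counts with a member share of 0.730%, whose part in the 0.30 was not tested. In the fit without cells over 2.5 times the median total, the median over members was 0.093. Thinning each cell to 50000 counts brought the median to 0.01, with 44 of 83 members positive. With cluster 0 alone as the TE-like side the median was 0.33, and with cluster 2 alone it was 0.05.

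By complex, all 13 tested members of complex V were positive, with a median of 0.27, as were 32 of 35 of complex I, with a median of 0.21. In complex III 7 of 9 were positive, with a median of 0.25, and in complex IV 12 of 16, with a median of 0.21. Cycs was at 0.36 (SE 0.20). Complex II was split 2 to 2, with a median of -0.26, and of the complex I assembly factors 3 of 7 were positive, with a median of -0.17. None of these counts has a test of its own.

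The member with the smallest p was Cox5a, on mouse chromosome 9 (mm10, chr9:57521274-57532426, plus strand). It was at 1401, 254 and 795 CPM in TE-like cells of replicates 1, 2 and 3 and at 687, 101 and 708 CPM in ICM-like cells. TE-like cells were higher in all 3 libraries, by far less in replicate 3 than in the others. The log2 fold change was 0.85 (SE 0.20, edgeR adjusted p = 0.0985), and Cox5a was called under 5 of 13 alternatives, with adjusted p from 0.00613 to 0.99996. Exons of a non-coding gene, Gm26631, overlap 12.8% of its exonic bases. Cyc1 (chr15:76343523-76346260, plus strand) was at 647, 146 and 541 CPM in TE-like cells, against 473, 85.5 and 398 CPM in ICM-like cells. It was higher in TE-like cells of each library, with a log2 fold change of 0.56 (SE 0.14, edgeR adjusted p = 0.108). Ndufa8, a subunit of complex I with paired cysteines (chr2:36036326-36049406, minus strand), was at 271, 73.2 and 390 CPM against 136, 51.0 and 251 CPM. It too was higher in each library, with a log2 fold change of 0.72 (SE 0.18, edgeR adjusted p = 0.113).

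In the other direction the smallest p belonged to Sdhd, Ndufaf5 and Sdhc. Sdhd was at 16.2, 45.7 and 108 CPM in TE-like cells, against 27.6, 75.6 and 129 CPM in ICM-like cells. It was lower in TE-like cells of each library, with a log2 fold change of -0.57 (SE 0.26, edgeR adjusted p = 0.368). Ndufaf5, an assembly factor that modifies a complex I subunit, was at 15.5, 7.905 and 23.5 CPM against 21.3, 15.4 and 34.7 CPM, with a log2 fold change of -0.65 (SE 0.36, edgeR adjusted p = 0.480). Sdhc was at 84.2, 28.7 and 84.5 CPM against 340, 31.1 and 81.5 CPM. The classes differed in replicate 1 only. There a single ICM-like cell held 2803 of the 3468 counts of Sdhc, 80.8%. That cell had 1165262 counts in all, a member share of 0.730% and a ribosomal protein share of 1.84%, values in the range of the unnamed cells of the same library. The log2 fold change of Sdhc was -0.67 (SE 0.41, edgeR adjusted p = 0.530), and -0.01 without cells over 2.5 times the median total.

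**Figure D5:**
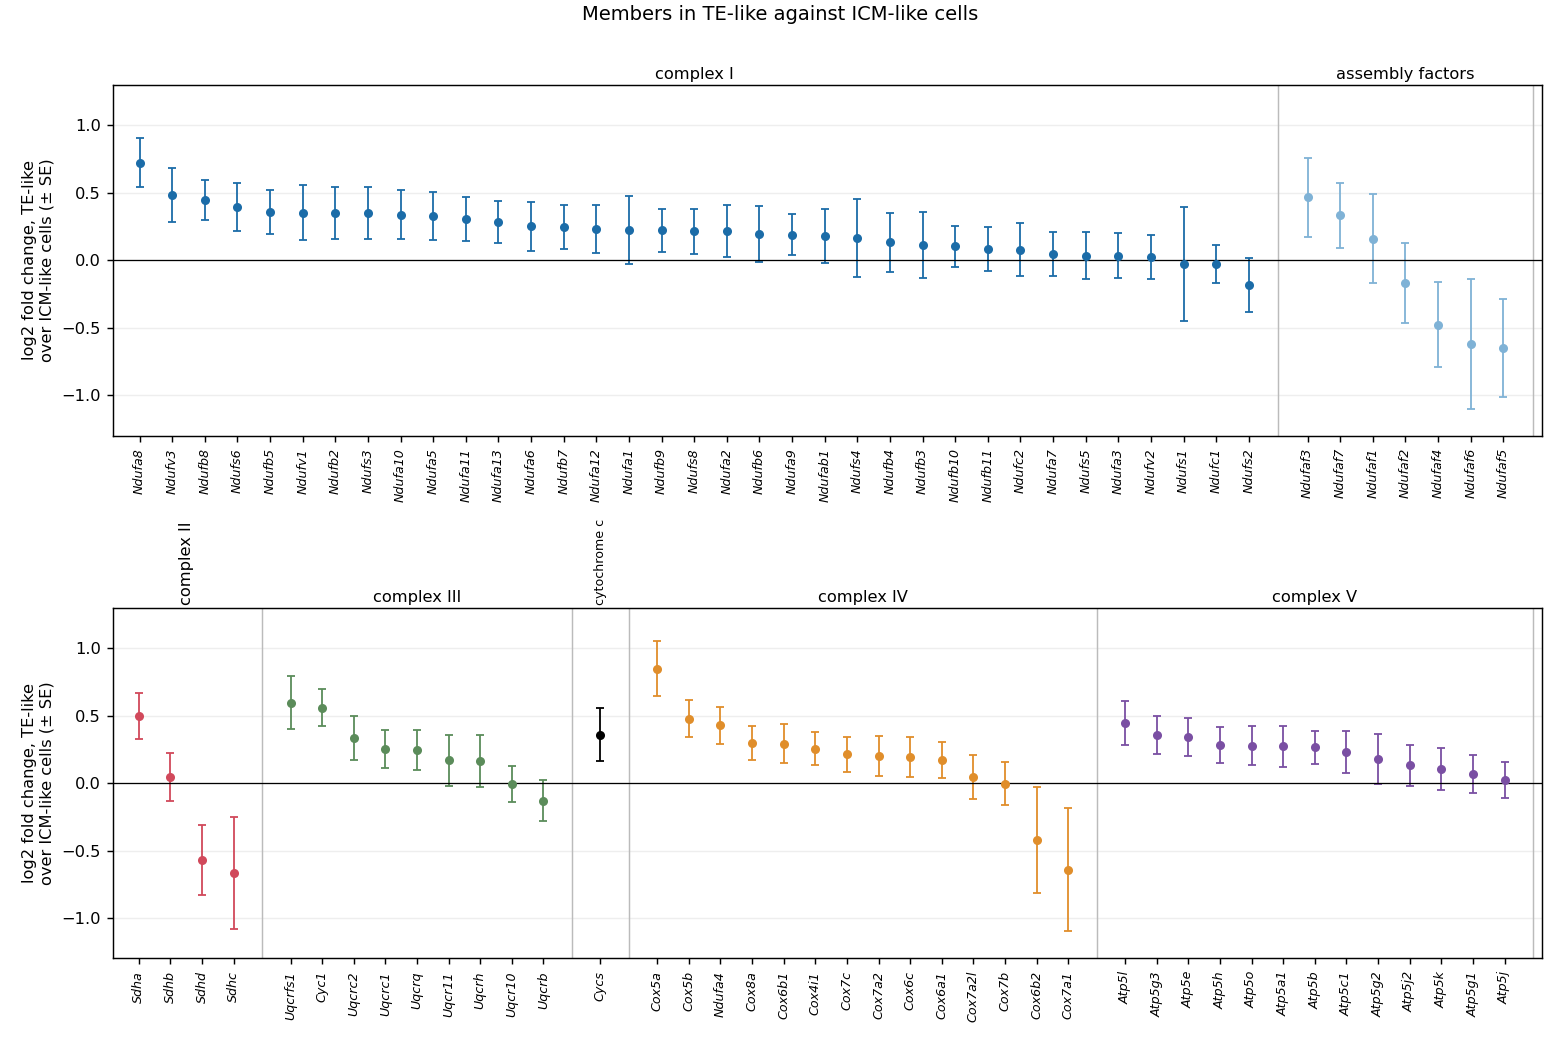
Log2 fold change of members between TE-like and ICM-like cells with its SE from edgeR, grouped by complex and ordered by value. Most points lie above 0, Cox5a (0.85) is highest and Sdhc (-0.67) lowest, and Cox6a2 and Cox8c, whose SE exceeded 1, are left out.

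The share of counts on members was 4.04%, 1.47% and 3.06% in the summed TE-like cells of replicates 1, 2 and 3 and 3.26%, 1.39% and 2.63% in the ICM-like cells. TE-like cells were higher in 3 of 3 libraries, by 0.431 percentage points on average (SD 0.350, n = 3). The difference was largest in replicate 1, at 0.782 percentage points. The ICM-like sum there includes the cell of 1165262 counts with a member share of 0.730%, and the difference without that cell was not computed. The exact permutation test, two-sided with signs flipped over 3 libraries, gave p = 0.25, which is the smallest it can give. When each cell counted equally, the differences were 0.171, -0.020 and 0.081 percentage points in replicates 1, 2 and 3. The difference was then smaller in each library and had the opposite sign in replicate 2.

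Other genes of mitochondrial energy metabolism were read from the same fit. Of 17 Krebs cycle genes, 1 rose in TE-like cells, Idh3a, a subunit of the NAD-dependent isocitrate dehydrogenase. It was at 111, 906 and 496 CPM in TE-like cells, against 55.5, 381 and 168 CPM in ICM-like cells, higher in all 3 libraries, with a log2 fold change of 1.28 (SE 0.17, edgeR adjusted p = 0.0117). Of 12 regulators of mitochondrial gene expression, 1 rose, Ppargc1b, a coactivator of the PGC-1 family. It was at 24.9, 61.2 and 56.5 CPM against 8.43, 14.5 and 18.3 CPM, with a log2 fold change of 1.76 (SE 0.31, edgeR adjusted p = 0.0350). No gene of the other pathway lists was called, and neither of these 2 was called without replicate 2 or without replicate 3. Leaving aside the cytoplasmic ribosomal proteins, 2 of 154 tested genes of all lists were called, against 2.01% of 13514 genes. The medians of the Krebs cycle and regulator lists were 0.26 and -0.18.

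None was called among 5 carriers and uncoupling proteins (median log2 fold change 0.25), 27 assembly factors of complexes II to V (0.08) and 7 further complex I assembly factors (-0.11). The same held for 9 genes of coenzyme Q synthesis (0.11), 77 mitochondrial ribosomal proteins (0.10) and 81 cytoplasmic ribosomal proteins (-0.04). The subunits coded by mitochondrial DNA were not analysed here.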

How the data were processed

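Counts were measured in 3 libraries of single cells picked from mouse embryos, with 96 barcodes each. The values deposited by the authors are raw whole-number counts per gene and barcode, not normalized. Per the submitters' processing notes they were made with CASAVA 1.8, HISAT2 and HTSeq on mouse build mm10. The annotation, the strand setting and the handling of molecular tags were not given in the sources used here, so a count may be a molecule or a read. Per the labels' protocols, 3' ends of cDNA from an oligo(dT) primer were captured, so levels need not scale with transcript length, and CPM per kilobase stands beside CPM.

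Barcodes with at least 2000 genes with a count were retained, and CPM was taken on their summed counts per library. Library totals over all barcodes were 30573711, 27610866 and 54444536 counts. No doublet caller was run on hand-picked cells. Cells were clustered with scanpy 1.11.5 on 54 markers alone (18 TE, 6 ICM, 10 EPI for epiblast, 20 PrE for primitive endoderm), as log2 of scaled CPM with a pseudocount of 1, centred within each library, with 10 principal components, 15 neighbours and Leiden resolution 0.5. A cluster was named when its marker score exceeded the other cells by 0.25. Classes were drawn on the cells that were tested, which the p-values do not include. Counts of each class with at least 8 cells were summed per library and tested with edgeR 4.0.16 (filterByExpr, TMM, quasi-likelihood test, Benjamini-Hochberg over all genes, threshold 0.05) with the library as a block, since both classes come from the same libraries. The 54 markers were left out of gene counts. DESeq2 1.42.0 was an alternative. The edgeR step was tested on simulated data. Transcript lengths are the shortest CCDS transcript of GENCODE M21, found for 93 members.

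Named were the 3 members of highest mean CPM in each complex, all of complex II, Cycs, Cyc1, all paralog sets, the members of smallest p in each direction, the extremes in replicate 2 and the highest assembly factor. The members and lists were chosen with earlier results of these data known.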

Additional observations from a re-analysis of the deposited data

Results flagged for a closer look

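Barcodes left out for having fewer than 2000 genes with a count belong to no comparison, and members were present there too. They took 2.70% of the counts of 13 such barcodes in replicate 1 (exact 95% binomial interval 2.55% to 2.85%, 1274 of 47251 counts), 1.48% of 32 in replicate 2 (1.41% to 1.56%, 1369 of 92365 counts) and 2.68% of 18 in replicate 3 (2.60% to 2.75%, 4819 of 180100 counts). Each share is far above the 0.00635%, 0.00325% and 0.00167% that 3 counts would give, which tells only that members were counted. Replicate 2 was again the lowest. Free RNA was not measured in empty wells, so whether these counts came from cells was not tested. Retained cells of the same libraries stood at 2.70%, 1.44% and 2.88%. Intervals cover counting error only.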

How the results depend on the processing

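Of 88 values of the main results under other settings, 64 stayed within their limits and 24 moved, and none reversed. These are values over the libraries used, and some that stayed fell far. The mean difference in share between TE-like and ICM-like cells fell from 0.431 to 0.077 percentage points when each cell counted equally. It was 0.230 with cluster 2 alone, and in both settings replicate 2 was negative. Without cells over 2.5 times the median total, the median log2 fold change of members fell from 0.21 to 0.093. Against 0 members called between TE-like and ICM-like cells, DESeq2 called 2, thinning to 50000 counts 2, and 1 each was called without a filter on low counts, without cells over 2.5 times the median total and with TE-like cluster 0 alone. Leaving out a replicate gave 0 to 1, with Cox5a called without replicate 3. The calls were Cox5a and Ndufa8 or Cox5a alone, and Cyc1 with cluster 0. Without the replicate block, 0 members were called and their median log2 fold change was 0.26, while 0 of 12535 genes passed and 668 had an unadjusted p below 0.05. The median of 0.21 moved to 0.012 after thinning and to 0.0495 with cluster 2 alone. Of the other pathway genes 2 were called, against 6 with DESeq2, 5 without cells of high total, 4 after thinning, 4 with cluster 0 alone, 0 with cluster 2 alone, 0 without the replicate block, and 0 to 2 when a replicate was left out. Over all genes 271 were called, against 12 without replicate 2, 148 without replicate 3, 593 without cells of high total, 573 with cluster 0 alone, 90 with cluster 2 alone, 491 after thinning, 413 without a filter and 1224 with DESeq2. The median log2 ratio of members in replicate 2 of -1.89 became -2.03 with TMM, -1.76 as a mean over cells and -2.17 among named cells, and -1.82 to -1.79 when replicate 1 or 3 was left out. Per kilobase, the log2 ratio of Cox6b1 to Cox6b2 was 4.66, of Cox7a2 to Cox7a1 4.32 and of Cox7a2 to Cox7a2l 1.15. Of the 6 members named from the test, none changed direction, and the cause of moved values was not tested, apart from fewer samples where a replicate was left out. The settings with 1 TE-like cluster alone, with named cells or fewer, per kilobase, for paralogs without a replicate and for the other pathway genes were added after the data had been seen. Depth limits the low paralogs, since 3 counts are the floor.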
